A study of Capra hircus with 24 samples.

Results

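Papilla cells of secondary hair follicles were compared with papilla cells of primary hair follicles in male cashmere goats (Capra hircus) sampled in October. Secondary follicles grow the fine cashmere fibre and primary follicles grow the coarse guard hair. The comparison uses 6 of the 24 libraries of the study, chosen by their labels alone: 3 secondary October male libraries and 3 primary October male libraries. The other 18 libraries cover females in October and both sexes in June, 3 for each combination with follicle type. The labels place the follicles in anagen, the phase of active hair growth, in October and in early anagen in June, and they name no treatment, age or genotype. They describe the material of every group as dermal papilla cells from goat skin, without saying whether the cells were cultured or how the papilla was isolated. The replicate libraries are labelled as biological replicates, and no label says that they came from separate animals or cultures, so the p-values reflect no more than library-to-library spread, part or all of which may be technical.

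The dermal papilla is the cluster of mesenchymal cells at the base of the follicle. Through Wnt, BMP and FGF ligands and their inhibitors it signals to the epithelial matrix cells that divide and form the hair, and the volume of its matrix and the number of its cells go with the size of the hair. SOX2 is a transcription factor used in mouse skin to tell papillae of different hair types apart, versican (VCAN) is a proteoglycan of the papilla matrix, and alkaline phosphatase (ALPL) is the enzyme most often stained to find the papilla.

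Expression was measured by RNA sequencing, and each deposited value is a normalised expression signal per gene and library in the authors' own scale. Of 20326 genes listed, 13049 reached 1 in at least 3 of the 24 libraries and were tested. Differences are secondary minus primary of log2(value + 1), a scale on which folds of genes with low values come out too small. A gene is called where its adjusted p (limma, Benjamini-Hochberg over the 13049 genes) is under 0.05. The values of the 3 secondary libraries summed to between 1018330 and 1045876 and those of the 3 primary libraries to between 964077 and 973885, so the secondary totals were 6.17% higher on average. Rescaling every library to a common total shifted the median difference of all genes from 0.01 to -0.07, and counts of genes and of list members higher and lower in October males are therefore given on both scales. The correlation across genes (not independent replicates) was 0.996 to 0.997 between libraries of the same group and 0.991 to 0.992 between secondary and primary libraries. The number of reads behind a value is unknown.

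The secondary October male libraries stood apart from the other secondary groups in genes that separate the follicle types elsewhere. SOX2 (gene ID 100861576) had values of 13.72, 15.07 and 13.88 in the 3 secondary libraries and 17.9, 14.77 and 15.04 in the 3 primary libraries. The groups overlapped, and the difference of -0.15 (SE 0.14, adjusted p = 0.529) was not called. In the other secondary groups SOX2 averaged 0.257 ± 0.176 (SD, n = 3) in June females, 0.26 ± 0.0361 in June males and 0.333 ± 0.351 in October females, against 12.4 to 12.7 in the matching primary groups. FGF7 (gene ID 102178454), a fibroblast growth factor that acts on epithelial cells, showed the same arrangement, with 78.44, 100.81 and 92.26 in the secondary and 86.52, 92.11 and 84.09 in the primary October male libraries. Its difference was 0.04 (SE 0.087, adjusted p = 0.807), and in the other 3 secondary groups its mean lay between 16.1 and 36.9. By correlation across all tested genes the secondary October male libraries were closest to primary October males (mean r of 0.992). Next came primary October females (0.982), secondary October females (0.979), secondary June females (0.977) and primary June females (0.974). Primary and secondary June males were near level (0.968 and 0.967). Likeness was not computed for the other secondary groups, so this order is not shown to be unusual. The labels of the 6 libraries are used here as given, and why these libraries differ from the other secondary groups in SOX2 and FGF7 was not tested.

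**Figure D1:**
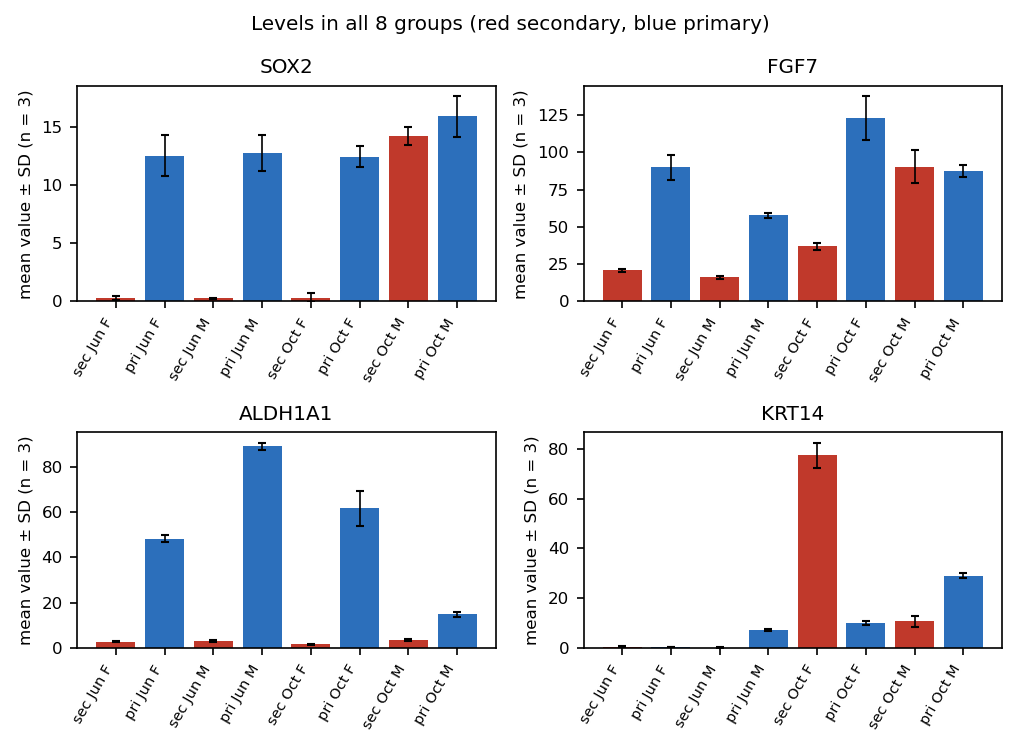
Mean deposited value (bars, from 0) and SD (n = 3 libraries) of SOX2, FGF7, ALDH1A1 and KRT14 in the 8 groups of follicle type, month and sex, secondary groups in red and primary groups in blue. SOX2 and FGF7 of secondary October males stand at the level of the primary groups, while ALDH1A1 stands at 3.55 in secondary and 14.8 in primary October males.

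The wider set of genes that separated the follicle types in the other 3 combinations of sex and month gave a mixed picture in October males. In October females, June males and June females, none of which shares a library with October males, 28 genes were called higher in secondary cells by at least 2-fold in each comparison, and 22 were called lower by at least 2-fold in each. In October males 18 of the 28 were called higher, 7 of them by at least 2-fold, 10 were not called and none was called lower, and the median difference was 0.50 against 1.59 in October females. Of the 22 genes, 11 were called lower in October males, 3 of them by at least 2-fold, 10 were not called and 1 was called higher, with a median of -0.21 against -1.54 in October females. October females helped to define both sets at 2-fold or more, so their medians had to be large, while October males met no such condition. Over all genes tested in October males, 10.9% were called higher and 7.63% lower. Without the limit of 2-fold, 554 genes were called higher in all 3 other comparisons and 240 of these (43.3%) were called higher in October males, while 632 were called lower and 174 of these (27.5%) were called lower.

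The genes that kept their direction included TNN, MAF, NME9, TAC1, DPT, TRPC4 and LRRC15, all called higher by at least 2-fold, and ALDH1A1, DHRS3 and UPK1B, all called lower by at least 2-fold. MAF, a leucine zipper transcription factor, had 3.36, 2.23 and 2.09 in secondary and 0.44, 0.35 and 0.43 in primary libraries, a difference of 1.32 (SE 0.11, adjusted p = 5.06e-09) against 2.27 in October females. RSPO1, a secreted amplifier of Wnt signalling, was 11.6 ± 0.794 against 7.82 ± 0.491, a rise of 0.51 where October females had 2.73. IGF2, an insulin-like growth factor, was lower by 0.59 on the log2 scale, at 11.5 ± 1.16 against 17.9 ± 1.37, where October females had a difference of -1.18 and June males of -4.06. Among genes that were not called, THBD, thrombomodulin, differed by 0.08 in October males and 2.51 in October females. FEZ1, an adaptor of the motor protein kinesin, differed by -0.10 and 2.89. The ubiquitin hydrolase UCHL1 differed by -0.02 and -1.75, and the transcription factor EBF1 by 0.02 and -1.29. FOXD1, a forkhead factor of dermal and other mesenchyme, went the other way, with 0.31 in October males (adjusted p = 0.00462) and -1.20 in October females. The set was defined by the other 3 comparisons and not by October males, so larger differences in October females follow in part from the choice of genes. The examples named from it were picked with all values in view.

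Papilla markers went both ways in October males. Of 24 genes of a papilla signature 17 were tested, 4 were called higher (23.5%) and 2 lower (11.8%), against 10.9% and 7.63% of all genes tested, with 3 and 3 on a common total. The median difference was 0.04. These shares over all genes apply to every list of October males that follows. VCAN rose, with 306.82, 307.76 and 290.26 in secondary and 208.98, 217.44 and 205.83 in primary libraries, by 0.52 (SE 0.052, adjusted p = 1.35e-07). The groups did not overlap, as in 38.5% of all genes tested. FGF10, a mesenchymal ligand for epithelial growth, was also higher, at 5.31 ± 0.114 against 3.96 ± 0.344 (difference 0.35, adjusted p = 0.00459). BMP4, a ligand that the papilla makes for the hair matrix, fell by 0.74 on the log2 scale, from 104 ± 5.4 in primary to 61.8 ± 3.89 in secondary libraries. LEF1, a Wnt effector, and NOG, the BMP antagonist noggin, were not called, with differences of 0.01 and 0.05. WIF1, a Wnt inhibitor, stood at 2.79 ± 0.605 and 3.6 ± 0.202 (-0.29, adjusted p = 0.118), and on a common total it was called at -0.36 (adjusted p = 0.0453), as it also was without secondary library 1 (-0.40, adjusted p = 0.0471). ALPL was at 0.23 or below in all 6 libraries, and SOX18, PROM1, CORIN, BMP6, HHIP, NRG2 and FGF5 were below 1 in all 6 as well, so 8 of the 24 signature genes were below 1 in cells labelled as papilla.

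Across the whole table the October male difference was small in size. In all 2412 genes were called (18.5% of those tested), 1416 higher and 996 lower in secondary cells. Of these, 86 genes (0.659%) differed by at least 2-fold, 25 higher and 61 lower. On a common total the calls were 742 higher (5.69%) and 2016 lower (15.4%), which turned the balance of higher and lower calls, while the number called was 2758. Median-of-ratios factors scale each library by the median ratio of its values to the geometric mean of each gene. With them 1460 genes were higher and 966 lower, near the balance of the deposited values. The factors were 0.9949 to 1 in the 6 libraries, so the deposited values were already near this scale. The like balance is therefore no separate check of it. The same fit called 4628 genes in October females, 35.5% of those tested, with 402 (3.08%) at 2-fold or more, and 7779 genes (59.6%) in June males, with 959 (7.35%) at 2-fold or more. The groups of 3 did not overlap in 5022 genes (38.5%). Most genes named below were picked for a large difference or a small p in these libraries, so their lack of overlap is no further support.

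**Figure D2:**
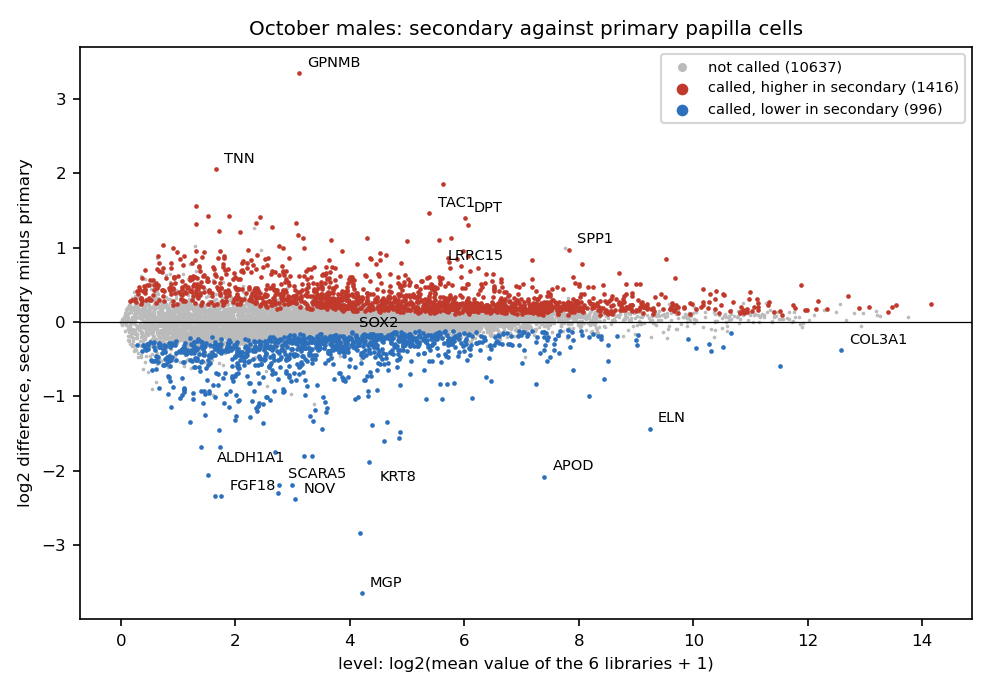
Difference between secondary and primary October male libraries (log2, y axis) against level (log2 of the mean value of the 6 libraries plus 1, x axis), 1 point per tested gene. Called genes are red (1416, higher in secondary) or blue (996, lower); most lie close to 0, and the labelled GPNMB (3.35) and MGP (-3.64) lie farthest out.

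Genes higher in secondary cells were led by GPNMB (gene ID 102173634), a transmembrane glycoprotein of lysosomes and melanosomes. Its values were 15.59, 13.88 and 14.46 in the secondary and 0.34, 0.75 and 0.55 in the primary libraries, a difference of 3.35 (SE 0.073, adjusted p = 4.32e-19). All 3 secondary libraries were far above all 3 primary ones, and the primary October male mean of 0.547 was below the 12.5 of primary October females and the 9.41 of primary June males. The melanocyte genes MLANA, TYR, TYRP1 and DCT were at 0 in all 6 libraries, and the summed value of the melanocyte markers ran from 26.9 to 28.9 in secondary and from 22.7 to 24.4 in primary libraries. RAB27A (12) and MITF (9.6) had the largest means in this sum, and 8 of the 12 markers were under 1 in all 6. TAC1 (gene ID 102191397), the precursor of the neuropeptide substance P, had 57.35, 63.79 and 60.43 against 21.35, 21.75 and 20.92, a rise of 1.46 (SE 0.099, adjusted p = 2.28e-10). PMCH, the precursor of melanin-concentrating hormone, had 16.27, 18.44 and 14.05 against 4.84, 8.32 and 8.49, a rise of 1.10 (SE 0.24, adjusted p = 0.00192). It had the widest spread of the leading genes, and its groups still did not overlap.

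Several leading genes encode proteins of the cell surface and the fibroblast matrix. DPT, dermatopontin, a small protein that binds collagen fibrils, had 102.1, 83.42 and 91.81 against 34.17, 36.28 and 32.62, a rise of 1.40 (SE 0.078, adjusted p = 9.5e-12). LRRC15, a membrane protein of activated fibroblasts, had 67.08, 60.42 and 62.56 against 27.93, 28.85 and 29.8, a rise of 1.11 (SE 0.049, adjusted p = 2.21e-13). L1CAM, an adhesion molecule of nerve and other cells, had 29.03, 23.52 and 25.03 against 10.94, 11.02 and 11.86, a rise of 1.13. In each of these the lowest secondary value was above the highest primary value. DES, the muscle intermediate filament desmin, stood at 74 ± 8.98 against 33.2 ± 0.775 (1.13). TRPC4, a calcium-permeable channel, stood at 10.9 ± 0.695 against 3.78 ± 0.707 (1.32), and ADGRB1, an adhesion receptor that takes part in the uptake of dying cells, at 6.36 ± 0.424 against 1.93 ± 0.0513 (1.33). The other genes of the 12 that rose most, among those with a mean of at least 5 in either group, were EEF1A2, a translation elongation factor best known from muscle and nerve (1.42), HAP1, a partner of huntingtin (1.28), and GALNT13, an enzyme that starts O-linked glycosylation (1.17).

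Genes lower in secondary cells were led by MGP (gene ID 108636042), matrix Gla protein, an inhibitor of calcification. Its values were 2.18, 1.8 and 1.24 in the secondary and 39.41, 30.82 and 29.2 in the primary libraries, a difference of -3.64 (SE 0.18, adjusted p = 1.01e-12), and the mean of the primary libraries was 19.0 times that of the secondary ones. APOD (gene ID 102181073), apolipoprotein D, a lipid carrier of resting fibroblasts, had 63.83, 63.32 and 64.02 against 276, 272.16 and 268.09, a fall of 2.08 on the log2 scale (SE 0.065, adjusted p = 4.07e-16). Both groups of APOD values were tight and far apart. NOV (gene ID 102181319), a matricellular protein of the CCN family, had 2.02, 1.54 and 1.42 against 12.95, 12.44 and 12.87 (-2.38, SE 0.10, adjusted p = 2.09e-13). SCARA5, a scavenger receptor that takes up ferritin, had 1.57, 1.49 and 1.3 against 10.76, 10.26 and 9.42 (-2.18, SE 0.094, adjusted p = 2.09e-13).

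PDK4, a kinase that restrains glucose oxidation, was at 1.28, 1.1 and 1.37 against 10.21, 9.72 and 10.29 (-2.30). MKX, the tendon transcription factor Mohawk, was at 3.07 ± 0.245 against 13.2 ± 1.43 (-1.80). SMOC1, a secreted modulator of BMP signalling, was at 1.98 ± 0.368 against 8.97 ± 0.3 (-1.75). For these genes, as for the ones above, no secondary library reached a primary one. UPK1B, a membrane protein first known from the bladder lining, was at 10.9 ± 0.486 against 35.3 ± 0.503 (-1.60). KRT8, a keratin of simple epithelia, was at 7.61 ± 0.721 against 30.8 ± 2.8 (-1.88). The retinoid enzymes ALDH1A1 and DHRS3, described further on, complete the genes with the largest falls.

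**Figure D3:**
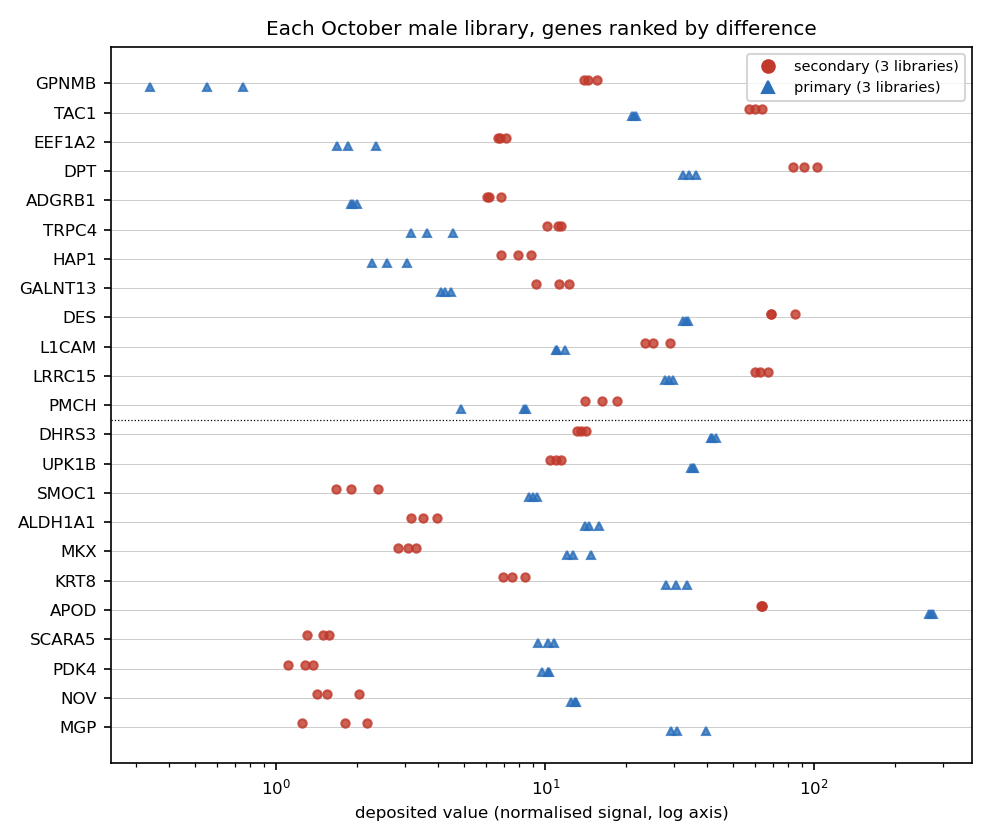
Deposited value (log axis) of each of the 6 October male libraries for the 12 named genes that rose most (above the dotted line) and the named genes that fell most (below it) among genes with a mean of at least 5 in either group, circles for secondary and triangles for primary libraries. The genes were picked by their difference in these same libraries, so the lack of overlap in every gene shown is no further support. Over all genes tested 38.5% did not overlap.

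The matrix of secondary cells differed in composition and not in 1 direction. Among 46 tested matrix glycoproteins, laminins and crosslinkers (54 listed) 14 were higher and 13 lower, with a median of -0.02, and on a common total 12 were higher and 17 lower. TNN (gene ID 102181229), tenascin N, had 4.85, 3.5 and 3.91 in secondary and 0.18, 0.21 and 0.27 in primary libraries (2.05, SE 0.093, adjusted p = 3e-13). SPP1, osteopontin, an acidic adhesion protein, had 303.46, 292.74 and 302.66 against 155.39, 150.53 and 150.33 (0.97, SE 0.047, adjusted p = 8.37e-13). ELN (gene ID 102169447), elastin, the core of the elastic fibre, went the opposite way, with 332.54, 297.84 and 346.72 against 872.23, 857.32 and 909.2 (-1.43, SE 0.084, adjusted p = 2.51e-11). The primary libraries thus held 2.70 times the elastin signal of the secondary ones.

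Proteoglycans were called higher more often than lower, with 12 higher and 4 lower of 27 tested (9 and 6 on a common total, with a median of 0.09 and 0.00). Small leucine-rich proteoglycans, which coat collagen fibrils, moved both ways. Of those that rose, DCN, decorin, stood at 980 ± 51.4 against 651 ± 18.6 (0.59), FMOD, fibromodulin, at 511 ± 16.5 against 324 ± 4.54 (0.66), and LUM, lumican, at 335 ± 17.6 against 194 ± 9.17 (0.78). PRELP, at 38.1 ± 0.744 against 55.9 ± 2.18, fell by 0.54, and OMD, osteomodulin, was called lower (-0.45, adjusted p = 0.016) but not without secondary library 3 or primary library 2 (adjusted p of 0.0831 and 0.112). The abundant members BGN (-0.01), OGN (-0.32) and ASPN (-0.22) were not called. TNFAIP6, which crosslinks hyaluronan, rose by 0.72. Of 25 tested collagens 9 were higher and 5 lower (8 and 5 on a common total). COL3A1, the fibrillar collagen of soft dermis and the most abundant of these examples, fell by 0.38 on the log2 scale, with 5233.52, 5308.1 and 5420.15 against 6904.4, 6875.55 and 6951.95 (SE 0.033, adjusted p = 1.43e-08). COL8A2, a network-forming collagen, also fell, by 0.91, and so did COL17A1, a hemidesmosome collagen of basal keratinocytes, by 0.70. COL6A3, a chain of the beaded-filament collagen around cells, rose by 0.37, from 1275 in the mean of primary to 1652 in the mean of secondary libraries.

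Of 40 tested matrix proteases and their inhibitors 13 were higher and 5 lower (10 and 5 on a common total). ADAMTS1, a protease that cuts versican, had 83.71, 83.03 and 85.13 against 50.98, 53.39 and 50.91 (0.69, SE 0.039, adjusted p = 1.21e-11), and MMP19 rose by 0.47. The serine protease inhibitor SERPINE2 fell by 1.31, from 4.7 ± 0.271 to 1.3 ± 0.103, and ADAM33, a membrane metalloprotease, fell by 1.01, from 22.5 ± 1.16 to 10.6 ± 0.771. The summed value of interfollicular fibroblast markers was 5600 to 5767 in secondary and 4471 to 4537 in primary libraries, with 8 of 19 tested markers called higher and 4 lower (8 and 6 on a common total). MFAP5, DCN and GSN had the largest means in this sum, and PI16, CD34 and CFD were under 1 in all 6 libraries. GSN, the actin-severing protein gelsolin, rose by 0.85, at 944 ± 31.7 against 523 ± 5.02. APOD, 1 of the 4 lower markers, had the largest difference of the list in either direction (-2.08). The higher sum therefore does not hold for each marker. In bulk samples fewer cells of a type and less RNA per cell cannot be told apart.

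Mitotic genes were higher in secondary cells. Of 46 genes of mitosis and the G2/M phase, all of them tested, 30 were called higher (65.2%, against 10.9% of all genes) and none lower, with a median difference of 0.28 against 0.01 over all genes tested, and on a common total 20 were higher and none lower with a median of 0.21. KIF20A, a kinesin of the dividing cell's midzone, had 27.72, 25.73 and 26.23 in secondary and 17.57, 15.96 and 17.27 in primary libraries (0.62, SE 0.058, adjusted p = 3.72e-08). CDC20, the activator of the anaphase-promoting complex, had 27.67, 25.59 and 26.72 against 18.8, 17.61 and 18.28 (0.52, SE 0.064, adjusted p = 2.13e-06). PRC1, which bundles midzone microtubules, rose by 0.41 and the spindle protein CKAP2 by 0.38. None of these 4 genes, picked for their small p in these libraries, had overlapping groups, and neither had 38.5% of all genes tested.

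Genes of DNA replication and the G1/S transition did not move with the mitotic genes. Of 39 tested 2 were called higher and 1 lower, with a median of -0.02, and on a common total 1 was higher and 7 were lower. RRM2, a subunit of the enzyme that makes deoxyribonucleotides, stood at 48.3 ± 2.25 against 39.1 ± 1.66 (0.30, adjusted p = 0.00212). Its partner RRM1 (0.14, adjusted p = 0.0308) and the nuclease DNA2 (-0.33, adjusted p = 0.0177) were called by a narrow margin: RRM1 was not called on a common total (0.05, adjusted p = 0.445) or without any 1 of the 6 libraries, and DNA2 was not called without secondary library 2 (-0.24, adjusted p = 0.114) or without primary library 2 (-0.29, adjusted p = 0.0819). Among 28 tested cell cycle inhibitors and p53 targets 3 were higher and 6 lower (2 and 13 on a common total). CDKN1A, the inhibitor p21, had 158.92, 143.3 and 149.02 against 205.84, 205.65 and 216.68, a fall of 0.48 on the log2 scale (SE 0.046, adjusted p = 6e-08). The p53 target ZMAT3 fell by 0.44. CDKN2B, the inhibitor p15, and the kinase PLK2 were higher, by 0.44 and 0.36.

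Genes of sterol synthesis were higher in secondary cells. Of 27 tested genes of cholesterol synthesis and its control (32 listed) 16 were called higher (59.3%, against 10.9% of all genes) and 3 lower (11.1%, against 7.63%), with a median of 0.33, and on a common total 14 were higher and 3 lower with a median of 0.25. HMGCS1 (gene ID 102176561), which makes the precursor of mevalonate, had 117.23, 118.3 and 119.79 against 78.16, 80.5 and 78.29 (0.58, SE 0.053, adjusted p = 2.72e-08). The enzymes SQLE and FDPS, from the middle of the pathway, each rose by 0.54. No secondary library of these 3 genes fell to the level of a primary one. The 3 lower members do not make sterol: MYLIP, the ligase that sends the LDL receptor to degradation, differed by -0.47, INSIG2, which holds back sterol-dependent transcription, by -0.36, and ABCA1, which exports cholesterol, by -0.35.

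Of 22 tested genes of fatty acid synthesis and desaturation 10 were higher and 1 lower, with a median of 0.19 (9 and 2 on a common total, median 0.10). The stearoyl-CoA desaturases SCD5 and SCD stood at 15.7 ± 0.494 against 9.12 ± 0.662 (0.73) and 40.7 ± 2.27 against 28.8 ± 0.503 (0.48). ACACA, which commits acetyl-CoA to fatty acid synthesis, rose by 0.38 and the desaturase FADS2 by 0.53. ACSS2, which activates acetate, was the lower member (-0.27, adjusted p = 0.0365), its groups overlapped, and it was not called without secondary library 1, 2 or 3, without primary library 2 or 3 or in the fit of the 6 libraries alone (adjusted p = 0.108). Lysosomal genes were called higher 17 times and lower 2 times among 42 tested, which became 8 and 3 on a common total. CTSB, a cysteine protease of lysosomes, stood at 632 ± 20.5 against 443 ± 10.7 (0.51), CTSH, another such protease, at 109 ± 7.06 against 69.6 ± 4.04 (0.64), and GM2A, a cofactor in ganglioside breakdown, at 288 ± 7.99 against 188 ± 4.64 (0.61). The lower members were the membrane protein SCARB2 (-0.46) and the lipase LIPA (-0.14, adjusted p = 0.039), and LIPA was not called without secondary library 1 or 3 or without primary library 1, 2 or 3.

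**Figure D4:**
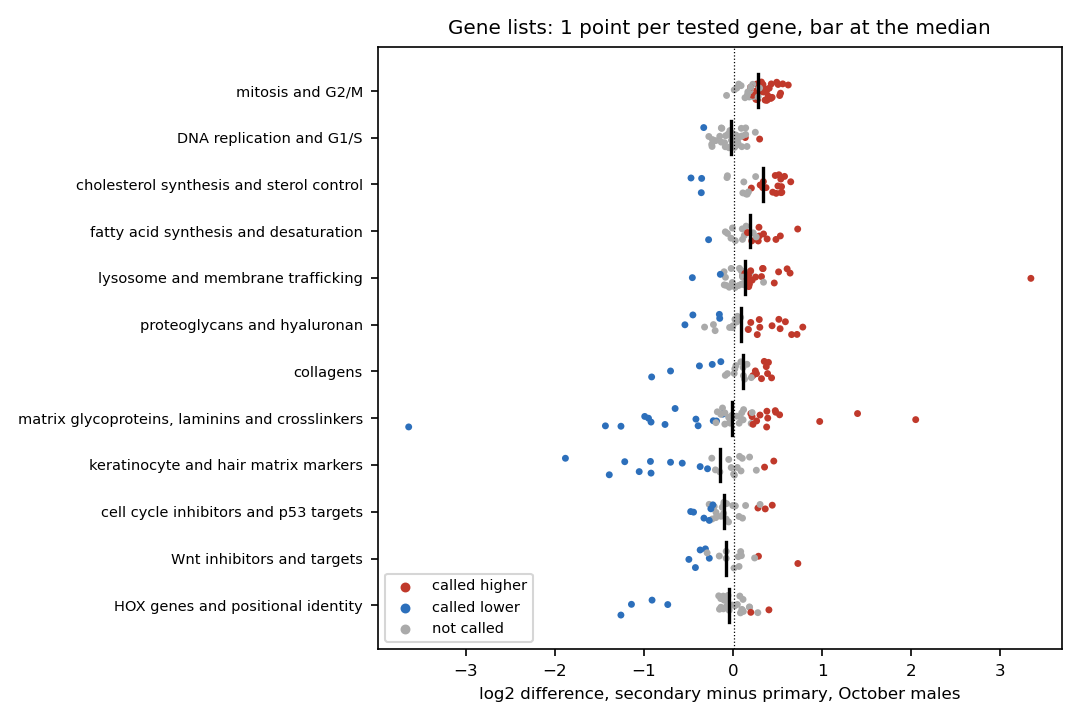
Difference between secondary and primary October male libraries (log2, x axis) for each tested gene of 12 lists, with a bar at the list's median. Mitotic genes (30 of 46 called higher) and sterol genes (16 of 27) lie mainly to the right of 0, while 10 of 25 keratinocyte markers lie to the left as called lower.

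Markers of keratinocytes and the hair matrix were lower in secondary cells. Of 25 tested (39 listed) 10 were called lower (40%, against 7.63% of all genes) and 2 higher (8%, against 10.9%), with a median of -0.15, and on a common total 11 were lower and 1 higher. Their summed value was 172 to 204 in secondary and 246 to 259 in primary libraries, and KRT1, KRT25, KRT27, KRT35 and SHH were at 0 in all 6. KRT14 (gene ID 102178106), a keratin of basal epidermis and the outer root sheath, had 13.29, 9.08 and 9.51 against 28.15, 30.42 and 28.73 (-1.39, SE 0.095, adjusted p = 2.57e-10). KRT19, a keratin of the bulge region and simple epithelia, stood at 6.19 ± 0.846 against 15.6 ± 0.815 (-1.22), and LAMB3, a chain of the epithelial laminin, at 1.58 ± 0.217 against 3.88 ± 0.26 (-0.92). The placental cadherin CDH3 was higher by 0.46. The part that epithelial RNA plays in these differences was not tested, and it also bears on KRT8 and COL17A1 above.

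The defining markers of several other cell types were at 0, while sums of some marker lists differed. Immune markers summed to 16.4 to 18 in secondary and 15.9 to 18.7 in primary libraries, with PTPRC, CD2 and MS4A1 at 0 in all 6, and 0 of 9 tested were called. Endothelial markers summed to 48.9 to 54.1 and 44.7 to 47.7, with TIE1, CLDN5, EMCN and ROBO4 at 0 in all 6. This sum was mostly ERG (mean of 34.6 over the 6 libraries) and EGFL7 (12.1). In all, 12 of the 15 markers were under 1 in all 6, PECAM1, CDH5 and VWF among them. The summed Schwann and nerve markers were 172.8 to 183.6 against 139 to 142.9, while the median difference of the 9 tested was -0.02. Of these 3 were called higher (3 higher and 3 lower on a common total), the calcium-binding protein S100B (0.55), the myelin protein PMP22 (0.26) and L1CAM, while the defining gene CDH19 was at 0 in all 6. Pericyte markers summed to 92.7 to 100.4 against 112 to 119.2, with 1 of 5 tested called higher and 2 lower on both scales. NDUFA4L2, a mitochondrial protein high in pericytes, fell by 1.48, from 42.4 ± 2.16 to 14.5 ± 0.916, and the adhesion molecule MCAM by 0.57, while CSPG4, the most abundant of the list, rose by 0.30. Skeletal muscle markers summed to 84.5 to 100.7 against 45.5 to 47.6, with DES the 1 called member of 4 tested and MYOD1, MYOG, PAX7, MYLPF and TTN at 0 in all 6. In the dermal sheath and smooth muscle list 6 of 22 were higher and 2 lower (6 and 5 on a common total), with DES among the higher ones.

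In BMP signalling the ligand BMP4 was lower while ID1, ID3 and ID4 were higher. ID1 (gene ID 102182889), an inhibitor of basic helix-loop-helix factors and a direct BMP target, had 87.29, 80.58 and 77.23 against 42.69, 37.99 and 44.92 (0.95, SE 0.062, adjusted p = 1.35e-10). ID4 had 12.13, 11.87 and 11.81 against 6.21, 7.42 and 6.59 (0.74, SE 0.065, adjusted p = 1.22e-08). In both genes every secondary library was above every primary one, while the ligand BMP4 was lower as given above (-0.74). ID4 differed by -2.06 in June males. Of the same list ID3 was also called higher in October males (0.61, adjusted p = 2.33e-06) but was not followed through the alternatives. ID2 (0.16), SMAD6 (-0.10) and SMAD7 (-0.01) were not called in October males. The BMP antagonist GREM1 rose by 0.37, at 510 ± 8.96 against 394 ± 7.05, and the ligand GDF6 by 0.50. In all 14 of 36 tested BMP and TGF-beta genes were higher and 4 lower, with 9 and 5 on a common total.

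Wnt receptors and ligands moved both ways, with 7 higher and 6 lower of 24 tested (6 and 9 on a common total). The receptor FZD5 rose by 0.45 and FZD4 fell by 0.48, while the ligand WNT5A, at 72.4 ± 1.94 against 59.8 ± 1.8, rose by 0.27 and the co-receptor LRP4 by 0.34. Among Wnt inhibitors, nuclear effectors and target genes 2 of 17 were higher and 5 lower (1 and 7 on a common total). The transcription factors TCF7L1 (-0.50) and TCF7L2 (-0.42) and the secreted inhibitors DKK3 (-0.31) and SFRP1 (-0.27) were among the lower ones, while target genes in the list were called both ways. FGF18 (gene ID 102178396), a growth factor of skin and bone, had 0.04, 0.12 and 0.17 against 5.17, 4.6 and 4.16 (-2.34, SE 0.10). It was below 1 in every library of the other 7 groups, those of primary cells in other groups included, and it passed the filter on low values only through the primary October male libraries, so it had to differ here and its p is not given. Of 38 tested growth factors and receptors, FGF18 among them, 9 were higher and 11 lower (8 and 16 on a common total).

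IGFBP5, a binding protein of insulin-like growth factors, had 531.27, 533.07 and 531.16 against 366.09, 375.17 and 373.92 (0.52, SE 0.035, adjusted p = 1.96e-10). PDGFC, a ligand for platelet-derived growth factor receptors, rose by 0.52 as well, and VEGFA, the main inducer of vessel growth, fell by 0.34. IGF1 was called lower (-0.29, adjusted p = 0.0359), at 29.5 ± 2.67 against 36.3 ± 3.09. It was not called without secondary library 1 or 2 (adjusted p of 0.180 and 0.0659), without primary library 1 or 2 (0.128 and 0.133) or without a filter on low values (0.0569).

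The retinaldehyde dehydrogenases ALDH1A1 and ALDH1A3 differed in opposite directions. ALDH1A1 (gene ID 102171605), which oxidises retinaldehyde to retinoic acid, had 3.52, 3.17 and 3.95 in secondary and 14.47, 13.98 and 15.88 in primary libraries (-1.80, SE 0.094, adjusted p = 3.24e-12). ALDH1A3, which catalyses the same step, had 2.8, 2.17 and 2.33 against 0.98, 0.8 and 0.85 (0.87, SE 0.084, adjusted p = 6e-08). Secondary libraries were thus lower than primary ones in the first enzyme and higher in the second, with no overlap in either. The secondary mean of ALDH1A3 (2.43) was below that of secondary October females (7.31), June females (16.0) and June males (20.95). DHRS3, which turns retinaldehyde back into retinol, had 14.21, 13.53 and 13.11 against 43.21, 41.57 and 41.29 (-1.56, SE 0.077, adjusted p = 1.08e-12). Of 16 tested retinoid genes 6 were higher and 4 lower, with 2 and 5 on a common total.

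Positional genes differed in a neighbouring block of the HOXB cluster. HOXB7 (gene ID 102168764) had 5.13, 5.46 and 3.99 against 13.44, 12.7 and 12.69 (-1.26, SE 0.12, adjusted p = 4.92e-08). HOXB6 (-1.14), HOXB8 (-0.91) and HOXB9 (-0.73) were lower too, with HOXB8 and HOXB9 under 2 in every October male library. These 4 are the lower members among 29 tested positional genes, of which 2 were higher (on a common total 1 was higher and 9 were lower). HOXD9 rose by 0.40, and MEOX2 was called at 0.20 (adjusted p = 0.0337) but not on a common total (0.12, adjusted p = 0.211) or without any 1 of secondary libraries 2 and 3 or of primary libraries 2 and 3. HOX levels mark the body region of a fibroblast, and the labels give no body site for any library. Among other dermal transcription factors 10 of 41 were higher and 5 lower (8 and 7 on a common total). EYA1, a transcriptional coactivator of organ formation, fell by 0.75, while PRRX1, a general factor of limb and skin mesenchyme, rose by 0.34, at 497 ± 14.2 against 391 ± 7.05.

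Hormone receptors and genes of steroid handling were called 4 times higher and 5 times lower among 23 tested (2 and 6 on a common total). VDR, the vitamin D receptor, fell by 0.65, with 18.53, 18.42 and 19.14 against 31.24, 29.57 and 28.89 (SE 0.060, adjusted p = 3.73e-08). TSC22D3, a target of the glucocorticoid receptor, fell by 0.79. NR2F2, an orphan receptor of mesenchyme, rose by 0.46. RORA, an orphan nuclear receptor that feeds into the clock, fell by 0.34. ESR1, the oestrogen receptor, was called lower, at 0.187 ± 0.0404 against 0.693 ± 0.211, and was under 1 in all 6 October male libraries. Among chemokine, cytokine and NF-kB genes 4 of 32 tested were higher (12.5%) and 5 lower (15.6%), with 4 and 9 on a common total. The cyclooxygenases, which begin prostaglandin synthesis, were among the higher ones: PTGS2 had 64.48, 67.94 and 66.09 against 39.77, 40.74 and 37.85 (0.73, SE 0.060, adjusted p = 5.15e-09), and PTGS1 had 1.44, 0.99 and 0.72 against 0.08, 0.14 and 0.07 (0.89). The prostaglandin receptor PTGER4 rose by 0.30 and the chemokine CXCL8 by 0.62. The 5 lower members were the chemokine CXCL12 (-0.57), the alarmin IL33 (-0.49), the cytokine IL34 (-0.36), the prostaglandin E synthase PTGES (-0.21) and the NF-kB subunit NFKB1 (-0.19). Without secondary library 1, or without primary library 2, IL33 (adjusted p of 0.104 and 0.0772), IL34 (0.0567 and 0.0513) and NFKB1 (0.122 and 0.124) were not called, nor was IL34 without primary library 3 (0.0675).

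The secondary-primary difference of October males was unlike that of October females for many genes. The 2 comparisons share no library. Across the 13049 genes, which are not independent, their differences correlated with r = 0.13. Of the 2412 genes called in males 881 were called the same way in females (36.5% of the male and 19% of the female calls) and 499 the opposite way (20.7% and 10.8%). The interaction, males minus females, was called in 3483 genes (26.7%), 1787 with a positive (13.7%) and 1696 with a negative difference (13%), which became 1234 and 2411 on a common total, and in 428 (3.28%) it was at least 2-fold. Of the 86 male genes with at least a 2-fold difference, 42 were called the same way in females, 22 the opposite way and 22 not at all, and for 73 the interaction was called.

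Mitotic genes are an example, as none of the 46 was called higher in October females and 36 were called lower, with a median of -0.40, where 18.3% of all genes were called higher and 17.2% lower, and the interaction was called for 42, all with the higher difference in males. KIF20A differed by 0.62 in males and -0.55 in females, with an interaction of 1.17 (SE 0.082, adjusted p = 1.33e-10). Keratinocyte markers went the other way, with 23 of 25 called higher and 1 lower in females and an interaction called for 21, 19 of them with the lower difference in males. KRT14 differed by -1.39 in males and 2.84 in females, where the secondary mean was 77.5. Of the 27 tested sterol genes 5 were called higher and 6 lower in females, with a median of 0.02. Their interaction was called with a positive difference for 16 and a negative one for 3. Matrix genes also parted: MGP differed by -3.64 in males and 1.75 in females, and ELN by -1.43 and 0.53. For genes such as TAC1 (1.46 and 1.53), UPK1B (-1.60 and -1.57) and COL8A2 (-0.91 and -1.03) the interaction was not called, which does not show that the sexes are equal. For TRPC4 (1.32 and 1.39) it was not called either, but with a pseudocount of 0.1 it was called at -2.10 (adjusted p = 4.05e-10), as the primary October female mean was 0.0533.

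Against June males, with which October males also share no library, the differences correlated with r = 0.324 across genes. Of the 2412 genes 1363 were called the same way in June males (56.5% of the October and 17.5% of the June calls) and 483 the opposite way (20% and 6.21%). The interaction, October minus June, was called in 5730 genes (43.9%), 2821 with a positive (21.6%) and 2909 with a negative difference (22.3%), which became 1556 and 4930 on a common total. In 869 genes (6.66%) it was at least 2-fold. Mitotic genes were called higher in June males in 46 of 46, with a median of 1.68, and G1/S genes in 39 of 39, with a median of 1.11, against 2 of 39 in October males. The background in June males was 30.7% higher and 28.9% lower. Sterol genes were called higher in 18 and lower in 5 of 27 in June males. LRRC15 differed by 3.43 in June and 1.11 in October, and ALDH1A1 by -4.53 and -1.80. DES differed by -2.71 in June and 1.13 in October, and APOD by -0.01 and -2.08, and for APOD the difference from June (-2.07) and the difference from females (-1.92) were both called.

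**Figure D5:**
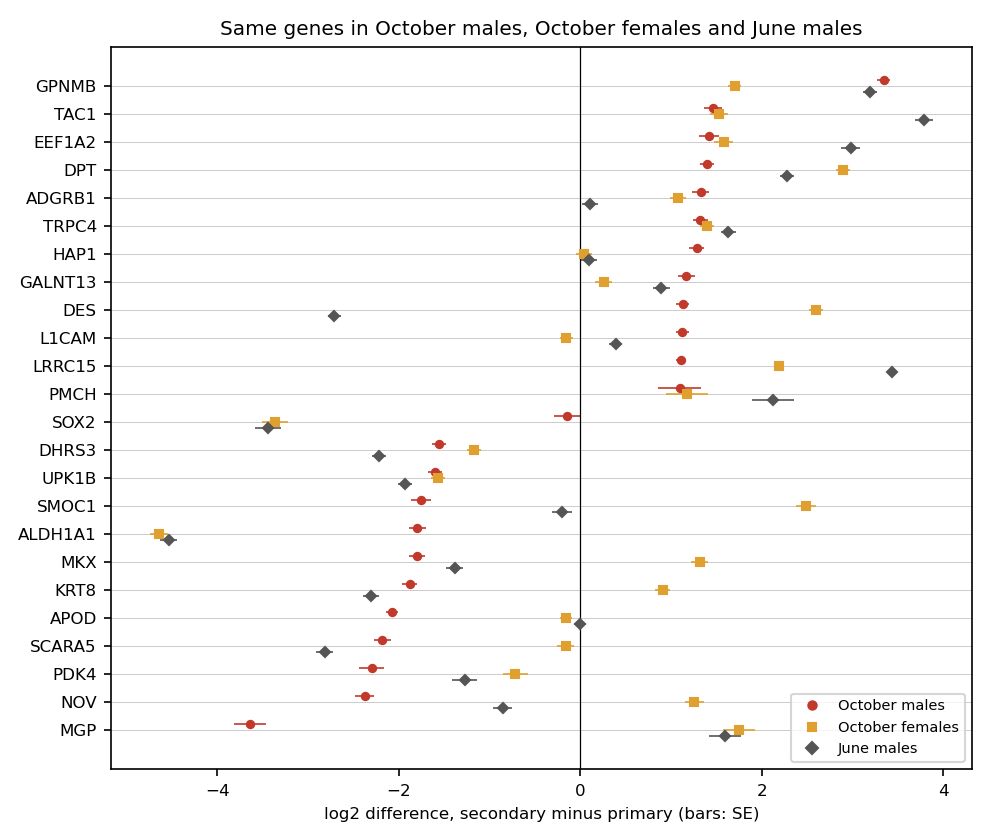
Difference between secondary and primary cells (log2, x axis, bars are SE) of the leading genes and SOX2 in October males (red circles), October females (yellow squares) and June males (grey diamonds), 3 libraries against 3 in each. SOX2 lies at -0.15 in October males and at -3.36 and -3.44 in the other comparisons, and MGP lies at -3.64 in October males and to the right of 0 in the others.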

How the data were processed

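RNA of papilla cells was sequenced in 24 libraries, 3 in each of 8 groups. RNAiso Plus, a TRIzol-type reagent, gave total RNA, and the kit for the paired-end libraries was NEBNext Ultra, per the labels' protocols. The tools named are kallisto 0.46.1 and sleuth 0.30.0, per the submitters' processing notes, which state no role for either. For build, transcript set and depth, no statement was given in the sources used here. Values deposited by the authors are a normalised expression signal with 1 value per gene and library, and they are not counts, so no counting interval is given. Of 20326 gene IDs 20294 matched assembly ARS1.2, used for names only. Reads shared by near-identical copies, such as keratin or ribosomal protein genes and their paralogs, depend on how the authors' software divided them.

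One limma fit (limma 3.58.1, run in R 4.3.3 and using statmod 1.5.0) of all 24 libraries had 8 group means, 16 residual degrees of freedom, and a robust variance trend. Its input was log2(value + 1) of genes reaching 1 in 3 libraries. Adjusted p-values are Benjamini-Hochberg values. The fit was run on simulated data with independent noise for each library. Such data cannot show whether the replicates are independent or which scale of totals holds. Interactions are contrasts in the same fit. The 43 gene lists are described by counts and medians, with no test of a list.

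The members and lists were chosen with earlier results of these data known. Named genes are the 12 highest and 12 lowest differences among called genes with a symbol and a group mean of at least 5, up to 4 called members by p of each list with at least 3 calls, and 15 genes often studied in papilla cells. ABCA1, ACSS2, CDH3, CSPG4, CXCL12, EBF1, ELN, FEZ1, FOXD1, GDF6, HOXB9, ID3, IGF2, IL33, IL34, INSIG2, LIPA, MCAM, MEOX2, MX1, MYLIP, NFKB1, NME9, OMD, PARP14, PRELP, PTGES, RSPO1, SCARB2, THBD and UCHL1 were added after their values were seen. Some genes picked by this rule are not reported here. Alternatives were other filters, a pseudocount of 0.1, median-of-ratios factors, a common total of 1e+06, a spread not estimated robustly, the 6 libraries alone, each library left out, the replicate number as a block, and a fold of at least 2 as well.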

Additional observations from a re-analysis of the deposited data

Results flagged for a closer look

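The secondary-primary difference of October males was compared with that of October females by an interaction term in the limma fit (values are the log2 difference in males minus that in females, adjusted p by Benjamini-Hochberg). For SOX2 the interaction was 3.22 (SE 0.20, adjusted p = 2.03e-11), as the marked deficit of secondary cells in females was not seen in males, and for ALDH1A1 it was 2.85, as the deficit was smaller in males. Matrix and matricellular genes had the opposite sign: MGP -5.39 (SE 0.25, adjusted p = 1.5e-13), SMOC1 -4.24, NOV -3.64, ELN -1.96, and DPT -1.5. For TNN it was -0.62, and with a pseudocount of 0.1 it reversed to 0.70 (adjusted p = 0.0132), so no direction is read from it. Keratins were lower in secondary males and higher in secondary females, with interactions of -4.23 for KRT14 (SE 0.14, adjusted p = 2.34e-16), -2.98 for KRT19 and -2.79 for KRT8. The summed value of keratinocyte markers is given beside these genes in the results, and its part in the interaction was not tested.

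NDUFA4L2, a mitochondrial protein high in pericytes, had an interaction of -4.38, the tendon factor MKX of -3.11, SCARA5 of -2.02, APOD of -1.92, PDK4 of -1.59, the desmin gene DES of -1.47, HOXB7 of -1.14, LRRC15 of -1.09 and DHRS3 of -0.39 (adjusted p = 0.0106). Genes with the higher difference in males were GPNMB (1.64), L1CAM (1.28), HAP1 (1.24), GALNT13 (0.91), BMP4 (0.52) and ID1 (0.42). For HAP1 and L1CAM the female difference was not called.

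Against June males the same kind of term (October minus June) is given for 6 of the leading genes. The difference of DES changed sign and the interaction was 3.84 (SE 0.11, adjusted p = 1.09e-17). That of ALDH1A1 was 2.74, of MGP -5.24, of TAC1 -2.33, of LRRC15 -2.33 and of APOD -2.07. TAC1 and LRRC15 were higher in secondary cells in both months, by more in June.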

How the results depend on the processing

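Among single-gene results, 177 kept direction and call on a common total, 2 lost a call and 1 gained one. Rescaling to a common total turned the balance of calls in October males from 1416 higher and 996 lower to 742 and 2016, and that of the October minus June interaction to 1556 positive and 4930 negative. With median-of-ratios factors October males had 1460 higher and 966 lower, and that interaction had 2968 positive and 2750 negative. These factors were 0.9949 to 1 in October males and 1.0048 to 1.0153 in June males. This setting therefore departs little from the deposited values. Scaling to a common total acts on the 2 groups in opposite ways. The secondary October male totals are above and the primary ones below 1e+06, so this scaling lowers the former and raises the latter. Asking for a 2-fold difference as well left 86 calls in October males (25 higher, 61 lower), 428 in the interaction with sex (162 positive, 266 negative), 869 in that with month (348 and 521) and 28 of 412 calls among list members, since a further condition only removes genes. Leaving out 1 library gave 1763 to 2065 calls in October males, 1022 to 1206 higher and 741 to 859 lower, 341 to 364 calls among list members, 2986 to 3978 for the interaction with sex and 5172 to 5569 for that with month. The interaction of TNN between the sexes reversed from -0.62 to 0.70 (adjusted p = 0.0132) with a pseudocount of 0.1. Its means were 4.09 in secondary and 0.22 in primary October males, and 23.25 and 2.80 in October females. The added 1 is larger than the primary male mean, so the sign of this interaction depends on the pseudocount. With the same pseudocount the interactions of TRPC4 with sex (-2.10) and of GPNMB with month (adjusted p = 1.03e-05) were called. Apart from the 2-fold condition, the single genes named as called in October males that lost their call under some alternative were RRM1, ACSS2, DNA2, LIPA, MEOX2, IGF1, OMD, IL33, IL34 and NFKB1, and WIF1 and FEZ1 gained one, FEZ1 without secondary library 1 (-0.22, adjusted p = 0.0380). With the replicate number as a replicate block 2068 genes were called in October males, 1229 higher and 839 lower, and 175 single-gene results kept their call while DNA2, RRM1, ACSS2, MEOX2 and IGF1 lost it. The numbers were not taken as pairs: the deviations of same-numbered libraries from their group means correlated with r of 0.0316, 0.136 and 0.0305. Reads per library are unknown, so genes under a value of about 1, such as ALPL, rest on an unknown number of reads.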

Other observations

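Immediate early genes, transcribed quickly after a stimulus with no need of new protein, were called higher 14 times and lower 4 times among 35 tested in October males, with a median of 0.09 (9 and 5 on a common total). JUN had 302, 279.42 and 319.46 in secondary and 211.24, 212.43 and 216.88 in primary libraries (0.49, SE 0.068, adjusted p = 1.36e-05 by limma with Benjamini-Hochberg adjustment). Heat shock genes were higher 8 times and lower 0 times among 20 tested, and on a common total 3 were higher and 3 lower. CRYAB, a small heat shock protein of muscle and lens, stood apart from the rest with 42.5 ± 0.607 against 19.4 ± 1.19 (1.09, adjusted p = 1.76e-09). SHMT1, a folate enzyme that interconverts serine and glycine, stood at 3.58 ± 0.341 against 0.987 ± 0.32 (1.22), while 4 of 23 tested genes of serine and one-carbon metabolism were higher and 2 lower (3 and 2 on a common total). Interferon response genes were called in 1 case higher and 1 lower among 36 tested (1 and 3 on a common total): the antiviral GTPase MX1 was lower (-0.43), with 42.1 ± 2.91 against 57.2 ± 0.974, and PARP14 was higher (0.34). In October females 25 of the 36 were lower and 1 higher.

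In several lists the balance of calls differed on a common total. Median-of-ratios factors, which hardly change the deposited values, left it near the deposited scale. With them 12 ribosomal protein genes were higher and 1 lower, and 11 and 3 genes of endoplasmic reticulum stress. Cytosolic ribosomal protein genes were higher 12 times (15.8%, near the 10.9% of all genes) and lower 1 time among 76 tested, against 0 and 3 on a common total. Genes of the nuclear respiratory chain were higher 6 times and lower 0 times among 42, against 1 and 0. Genes of glycolysis and hypoxia were 10 higher and 8 lower of 34, against 4 and 10, and genes of endoplasmic reticulum stress and the amino acid response were 10 higher and 4 lower of 34, against 4 and 10. In this last list STC2, a secreted stanniocalcin, rose by 0.42, at 4.89 ± 0.0666 against 3.4 ± 0.13, also on a common total (0.35). Lists in which 0 or 1 genes were called in a direction include the circadian clock, with 1 higher and 4 lower of 19, and Notch and Hedgehog signalling, with 1 higher and 4 lower of 17 (0 and 5 on a common total in both). Integrins and matrix receptors were 5 higher and 6 lower of 24 (4 and 6 on a common total), and genes of iron handling 3 and 2 of 15 (2 and 2). Transcripts of the mitochondrial genome were 3 higher and 0 lower of 13 (1 and 0). Melanocyte markers were 2 higher and 0 lower of 4 (1 and 0), adipocyte and sebaceous markers 2 and 0 of 8 (2 and 1), and endothelial markers 1 and 0 of 5 on both scales.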
